A study of Mus musculus with 9 samples.

Results

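This report describes what 6 h of lipopolysaccharide (LPS) did to gene expression across functional classes of genes in control bone marrow-derived macrophages (BMDMs), primary macrophages grown from mouse bone marrow. It rests on 6 of the series' 9 RNA-seq libraries, 3 labelled Control and untreated and 3 labelled Control and treated with LPS. Both groups came from C57BL/6 mice recorded as wild type, were cultured for 7 days in dishes not treated for tissue culture, and differed, per the labels, in LPS alone. The other 3 libraries, from SRF-KO cells given LPS for 6 h, entered the statistical fit to share its estimate of spread and are not compared here. No source used here gives the LPS dose or its origin, nor how old the mice were. Nothing states that replicates came from different mice or dishes, and p-values then cover only the spread among these libraries, possibly a technical one.

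LPS, a glycolipid that coats Gram-negative bacteria, is sensed by macrophages through Toll-like receptor 4 and its co-receptors. The receptor signals through adaptor proteins to NF-kB, mitogen-activated protein kinases and interferon regulatory factors, and the first proteins made (cytokines, type I interferon) act back on the same cells. By some hours the cell has changed more than its cytokine output: what it imports and exports, which receptors it carries, which transcription factors it holds, and what it builds outside itself. These further functions are described here, in 70 families of genes grouped in 5 classes (transporters and channels, receptors and other membrane proteins, transcription factors and chromatin proteins, enzymes and signalling proteins, and secreted proteins).

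The files held counts for 22524 genes, with totals of 15867737 to 17606538 per untreated library and 15321839 to 19009123 per LPS library. The test covered the 11560 genes that passed a filter on low counts. Levels are CPM (read counts relative to a fixed library size) after TMM scaling, the trimmed mean of M-values, given for the 3 untreated and then the 3 LPS libraries, each in the order of their replicate numbers. Differences are log2 fold changes, LPS against untreated, from the quasi-likelihood test of edgeR, with Benjamini-Hochberg adjusted p-values over all 11560 genes. The SE is the size of the log2 fold change, fitted without shrinkage, divided by the square root of that test's F statistic. In genes with few counts in a group it is smaller than counting error alone would give, and it is left out for several of them. In this text a gene rose or fell if its adjusted p was below 0.05. Of all tested genes, 81.7% passed, 40.8% in each direction. A change of at least 2-fold in addition was met by 15.6% of genes upward and 17.4% downward, and these shares are the background for each count below. Most genes, 7749 of 11560, met neither. With library totals in place of TMM, all genes shift down together (median log2 fold change -0.57, against -0.02 with TMM), and the background becomes 10.1% upward and 31.4% downward. Both counts are therefore given for each family, the second as "with library totals". Counts of members that were up or down, and all counts with library totals, are of changes of at least 2-fold, and counts at any size of change are said to be so. Genes were named by a rule that required at least a 2-fold change in the same direction with both scalings and groups that did not overlap (82.1% of all genes did not overlap). The rule named 253 genes, 123 higher and 130 lower, each with an adjusted p of at most 4.29e-06 in that edgeR test. Others are said to be outside it. In bulk RNA, fewer cells of a type and less RNA per cell cannot be told apart.

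The cells carried the markers of macrophages. All 10 macrophage markers (among them Adgre1, Cd68 and Csf1r) were detected, and their summed level was 17077 to 17639 CPM in untreated and 23160 to 23649 CPM in LPS libraries. The 10 granulocyte markers summed to 2.35 to 2.65 and 6.40 to 7.40 CPM, the 6 B cell markers to 2.94 to 4.12 and 1.68 to 2.74 CPM, and the 6 dendritic cell markers to 0.801 to 0.910 and 3.11 to 4.43 CPM. Most of the rise in the dendritic cell sum came from Ccr7 (0.478 and 2.75 CPM on average). T and NK cell, mast cell, and erythroid and megakaryocyte markers each summed to at most 1.87 CPM in each library. The 10 stromal and endothelial markers summed to 18.0 to 21.2 CPM untreated and 62.8 to 70.5 CPM with LPS, nearly all of it from Kdr (18.2 and 58.8 CPM on average). Col1a1 and Col3a1, which define fibroblasts, had 0 counts in all 6 libraries.

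The 5 classes leaned in different directions. Among secreted proteins 72 of 183 tested genes (39.3%) rose and 38 (20.8%) fell at least 2-fold, and with library totals 58 and 52. Receptors and membrane proteins followed, with 89 of 281 (31.7%) higher and 64 (22.8%) lower, and 68 and 102 with library totals. More transporters and channels fell than rose, 86 (25.7%) against 62 (18.5%) of 335, and with library totals 130 against 44. Enzymes and signalling proteins, the broadest class, were close to the background with 283 (17%) higher and 294 (17.7%) lower of 1662, and 167 and 538 with library totals. Transcription factors and chromatin proteins were below the background with TMM, with 86 (12%) higher and 109 (15.2%) lower of 716, and 58 and 233 with library totals. The lists held 3172 tested genes of 5287 in the files, and their members were chosen by family name. The plot of shares by list gives families beside the background.

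**Figure D1:**
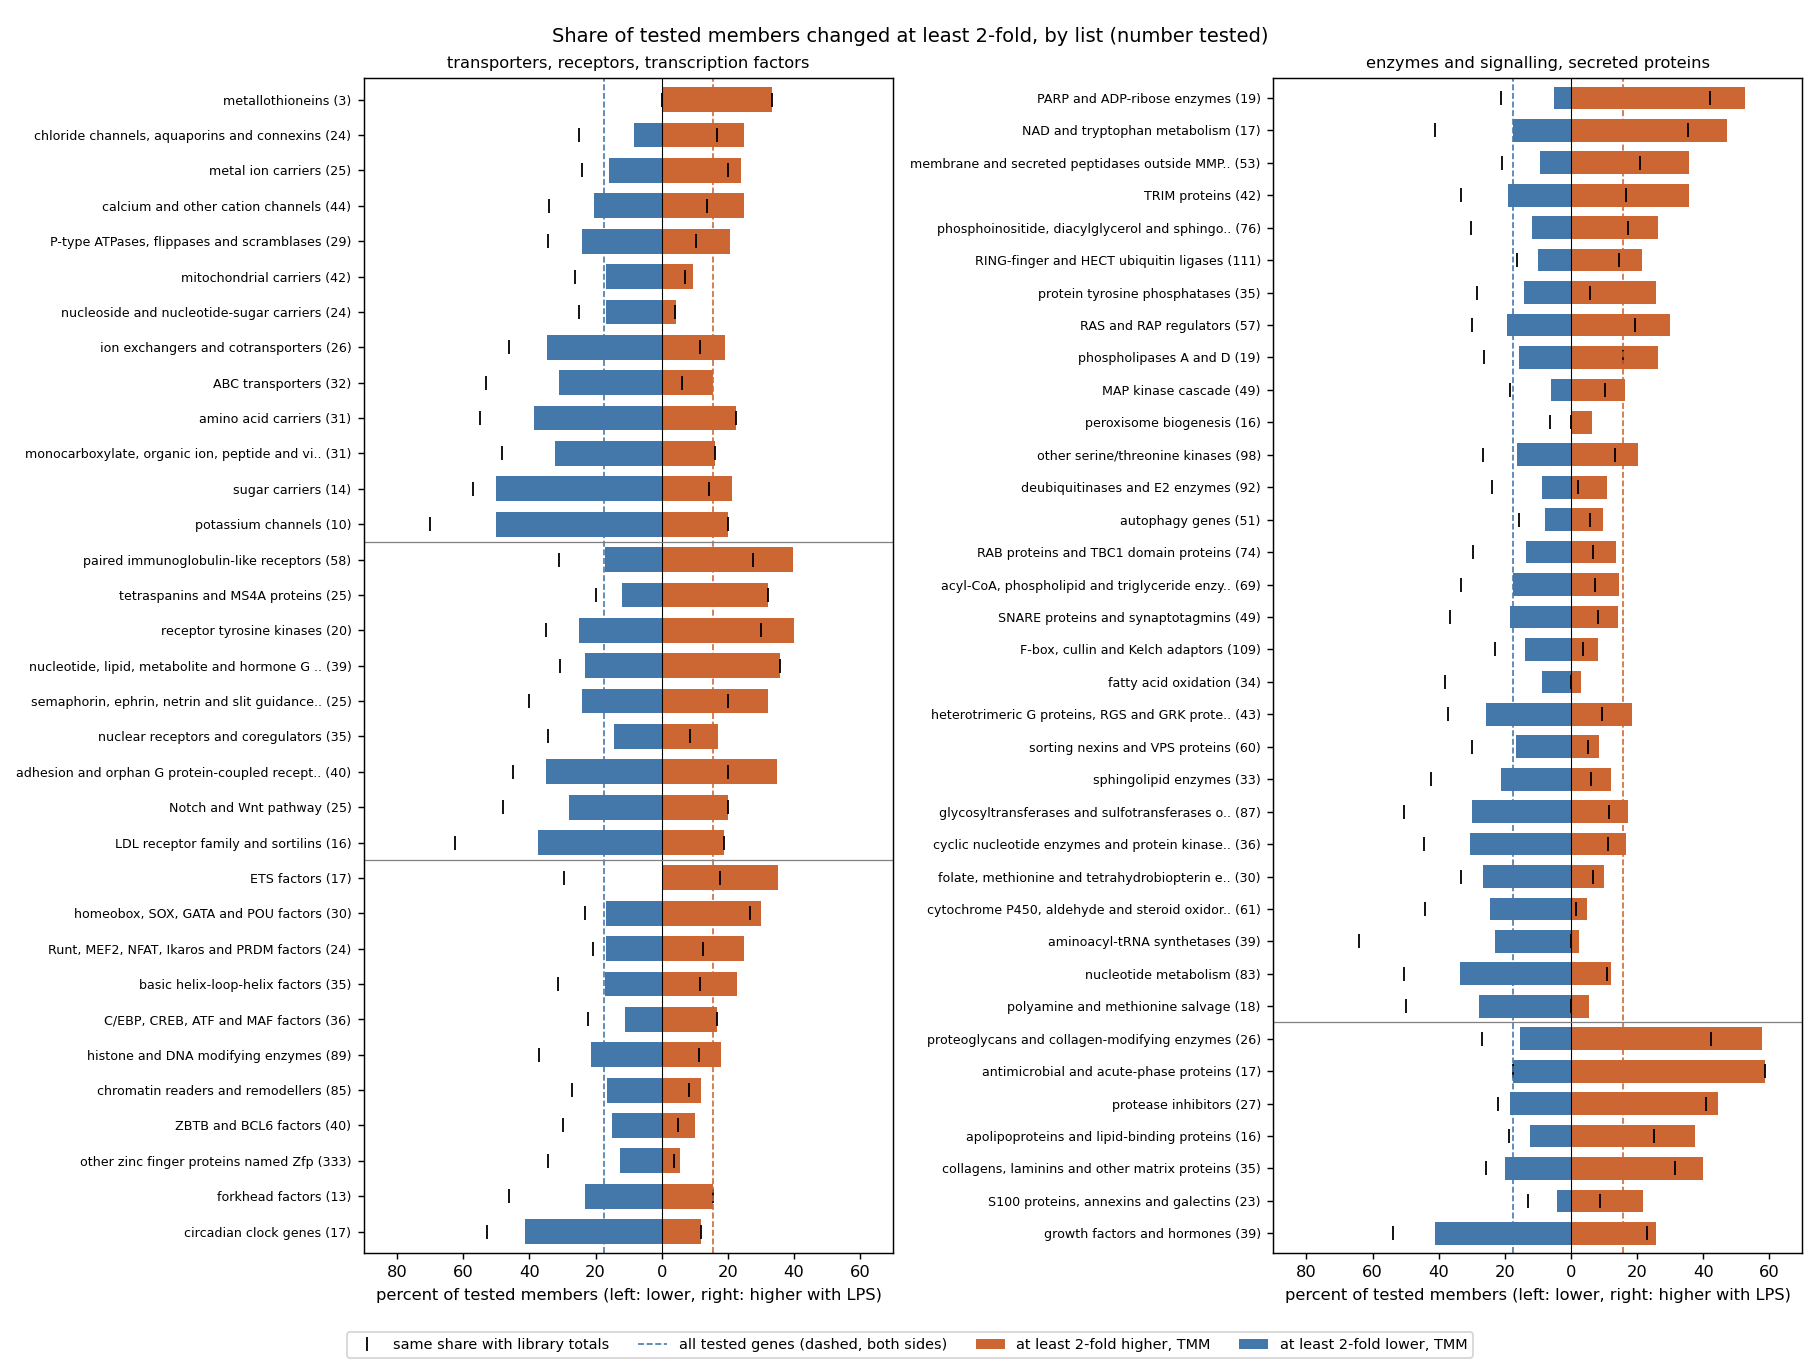
Percent of the tested members of all but 1 of the 70 lists that were at least 2-fold higher (right, orange) or lower (left, blue) with LPS after TMM scaling, grouped by class, with the number tested in parentheses. Black ticks give the same shares with library totals and dashed lines the shares of all 11560 tested genes with TMM (15.6% higher and 17.4% lower, which become 10.1% and 31.4% with library totals); antimicrobial proteins and proteoglycans reach furthest right and potassium channels, sugar carriers and clock genes furthest left.

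Amino acid carriers changed in both directions. Slc7a2, which imports arginine and other cationic amino acids, was at 38.3, 40.1 and 44.6 CPM in the untreated libraries and 1308, 1328 and 1303 CPM with LPS. This is a rise of 5.00 on the log2 scale (SE 0.051), with all LPS libraries far above all untreated ones. Slc7a11, the cystine importer that exports glutamate in exchange, was at 2.03, 2.01 and 2.19 CPM in the untreated libraries and 161, 180.3 and 162 CPM with LPS (log2 fold change 6.33). More members of the family fell than rose. Of 31 tested (of 60 in the files), 7 rose and 12 fell at least 2-fold (7 and 17 with library totals). Slc1a4, a carrier of alanine, serine and cysteine, fell from 4.27 ± 0.917 to 0.977 ± 0.488 CPM (SD, n = 3). Slc43a3, counted in this list by its family symbol and not by what it carries, fell by 2.25 on the log2 scale. Outside the rule, and picked after their values were seen, Slc7a1 (from 73.5 to 27.7 CPM), another carrier of cationic amino acids, and Slc1a5 (from 41.7 to 10.6 CPM), a glutamine carrier, also fell (log2 fold changes -1.41 and -1.98).

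Sugar carriers split by member. Slc2a6 rose from 30.2 ± 3.75 to 559 ± 36.7 CPM (log2 fold change 4.22) and Slc2a1, the GLUT1 glucose carrier, rose from 80.1 to 521 CPM. Slc2a3, the GLUT3 glucose carrier (ENSMUSG00000003153, chromosome 6, 122727809 to 122801640, minus strand), was at 20.6, 19.1 and 19.3 CPM in the untreated libraries and 2.01, 1.87 and 2.39 CPM with LPS, a log2 fold change of -3.22. Of 14 sugar carriers tested 3 rose and 7 fell at least 2-fold (2 and 8 with library totals). Slc37a2, of the sugar-phosphate carrier family, fell by 2.69 on the log2 scale.

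The organic anion carriers Slco3a1 and Slco2b1 moved in opposite directions. Slco3a1 (ENSMUSG00000025790, chromosome 7, 74275419 to 74554780, minus strand) was at 7.14, 8.86 and 9.23 CPM in the untreated libraries and 592, 589.9 and 591 CPM with LPS. Its rise was 6.14 on the log2 scale (SE 0.0583), and the 3 LPS libraries lay close together. Slco2b1 (ENSMUSG00000030737, chromosome 7, 99657804 to 99711340, minus strand) was at 38.4, 36.9 and 43 CPM in the untreated libraries and 0.886, 0.968 and 1.94 CPM with LPS, a log2 fold change of -4.92. In their list of monocarboxylate, organic ion, peptide and vitamin carriers, 5 of 31 rose and 10 fell at least 2-fold (5 and 15 with library totals). Slc15a3, a lysosomal carrier of peptides and histidine, rose by 2.96 on the log2 scale, and Slc46a3, also of lysosomes, fell by 3.09.

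Nucleoside carriers also moved apart. Slc28a2, which takes up nucleosides together with sodium, rose from 26 ± 0.628 to 816 ± 16.7 CPM (log2 fold change 4.97). Slc29a2, an equilibrative nucleoside carrier, fell from 5.31 ± 0.271 to 1.26 ± 0.543 CPM (log2 fold change -2.03). Most members of the list carry nucleotide sugars into the Golgi. Over the whole list, Slc28a2 and Slc29a2 included, 1 of 24 rose and 4 fell at least 2-fold (1 and 6 with library totals), Slc28a2 being the rise and Slc29a2 among the falls.

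Copper carriers rose and the iron exporter fell. Slc31a1, the copper importer CTR1, rose from 69.3 ± 2.79 to 419 ± 19.6 CPM, and its relative Slc31a2 rose from 61.5 ± 0.715 to 583 ± 7.87 CPM (log2 fold changes 2.60 and 3.24). Mt2, a metallothionein that binds zinc and copper, rose by 3.81. Slc40a1, ferroportin, the iron exporter, fell from 4.14 ± 0.0235 to 1.31 ± 0.364 CPM (a log2 fold change of -1.64), and Slc39a10, a zinc importer, fell by 1.86. Over the whole list 6 of 25 rose and 4 fell at least 2-fold (5 and 6 with library totals). In mitochondria, Slc25a37, the iron importer mitoferrin-1, rose by 2.15 and Slc25a22, a glutamate carrier, by 2.48, while the aspartate-glutamate carrier Slc25a13 fell by 2.16. Like most tested genes, most of the 42 mitochondrial carriers tested did neither (4 rose and 7 fell at least 2-fold, 3 and 11 with library totals).

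Efflux pumps, scramblases and channels held large changes of single members. Abcc4, which exports cyclic nucleotides and prostaglandins, rose by 2.46 on the log2 scale, and Abcb1a, a P-glycoprotein whose reads could be split with its near copy Abcb1b, rose by 2.66. Of 32 ABC transporters 5 rose and 10 fell at least 2-fold (2 and 17 with library totals). Xkr8, a scramblase that exposes phosphatidylserine, rose by 3.30, and Plscr4, of another scramblase family, was at 7.19, 6.27 and 8.81 CPM in the untreated libraries and 0.645, 0.968 and 0.776 CPM with LPS, a log2 fold change of -3.19. Clic5, of the chloride intracellular channel family (ENSMUSG00000023959, chromosome 17, 44188584 to 44280172, plus strand), was at 0.338, 0.0958 and 0.107 CPM in the untreated libraries and 21.2, 20.5 and 21.9 CPM with LPS, a rise of 6.81. Gja1, the gap junction protein connexin 43, rose from 1.55 ± 0.102 to 29.4 ± 1.53 CPM (log2 fold change 4.24), and the channel protein Panx1 fell by 2.27. Cacna1a, the pore subunit of a voltage-gated calcium channel, was at 56.2, 54.3 and 55.2 CPM in the untreated libraries and 5.64, 6.5 and 4.98 CPM with LPS, a log2 fold change of -3.28, while the auxiliary subunit Cacnb3 rose by 4.53. Orai2, a store-operated calcium channel, rose by 2.81 and Itpr3, a calcium release channel of the endoplasmic reticulum, fell by 2.20. Of the 10 potassium channel genes tested, 2 rose at least 2-fold, among them Kcna3 (log2 fold change 2.25), and 5 fell at least 2-fold, among them Kcnj2 (-1.81) and Kcnk13 (-2.04). At any size 3 of them rose and 7 fell, and with library totals the counts were 2 and 7.

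**Figure D2:**
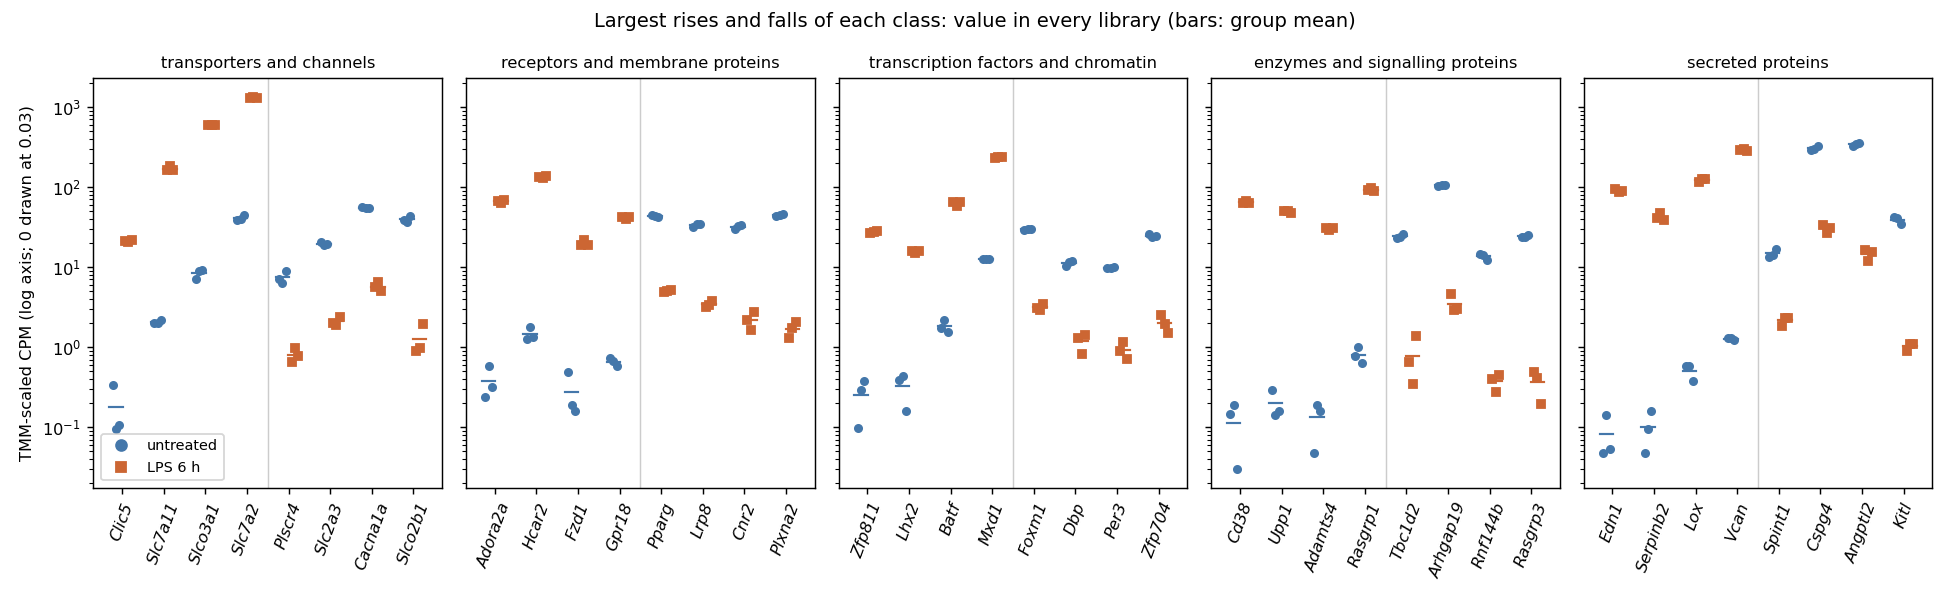
TMM-scaled CPM (log axis) in each of the 3 untreated (blue circles) and 3 LPS libraries (orange squares) for the 4 largest rises and 4 largest falls that the naming rule gave in each class; short bars are group means and 0 is drawn at 0.03. The 2 groups are apart for each of the 40 genes, as the rule required, and the 3 LPS libraries of Slco3a1, Slc7a2 and Vcan lie almost on top of each other.

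Among receptors for adenosine, nucleotides, lipids and metabolites more rose than fell. The largest rise of the class was in Adora2a, an adenosine receptor that raises cyclic AMP (ENSMUSG00000020178, chromosome 10, 75316877 to 75334784, plus strand), at 0.241, 0.575 and 0.32 CPM in the untreated libraries and 67.1, 62.8 and 67.9 CPM with LPS. Its log2 fold change was 7.41, and the highest untreated library was far below the lowest LPS library. Adora2b and Adora3, which are outside the rule and were chosen after their values were seen, rose as well, from 7.16 to 141 CPM and from 0.956 to 9.51 CPM. Hcar2, the receptor for nicotinic acid and beta-hydroxybutyrate, was at 1.25, 1.77 and 1.33 CPM in the untreated libraries and 134, 130.0 and 135 CPM with LPS (log2 fold change 6.51). Cnr2, cannabinoid receptor 2, was at 29.6, 32.5 and 33.4 CPM in the untreated libraries and 2.18, 1.66 and 2.78 CPM with LPS, a log2 fold change of -3.84. Of 39 tested, 14 rose and 9 fell at least 2-fold (14 and 12 with library totals).

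Adhesion and orphan G protein-coupled receptors changed in both directions alike, 14 up and 14 down of 40 at least 2-fold (8 and 18 with library totals). Gpr18 was at 0.724, 0.67 and 0.587 CPM in the untreated libraries and 41.7, 39.7 and 41.9 CPM with LPS, a rise of 5.94 on the log2 scale. Gpr84, a receptor of medium-chain fatty acids that is outside the rule and was chosen after its values were seen, rose from 50.2 to 681 CPM (log2 fold change 3.76). Gpr183, an oxysterol receptor that guides immune cell migration, fell by 2.74, and the adhesion receptor Adgrg1 fell by 2.38. Downstream of these receptors, Rgs2, which shortens signalling by heterotrimeric G proteins, fell from 225 ± 3.01 to 8.6 ± 0.492 CPM (log2 fold change -4.71), and Rgs12 fell by 2.42. The G protein subunit Gnb4 rose by 2.32.

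Among enzymes of cyclic AMP, a messenger of several of these receptors, more fell than rose. Pde4b, a phosphodiesterase that degrades cyclic AMP, rose from 8.38 ± 1.09 to 275 ± 10.9 CPM (log2 fold change 5.04), while the adenylyl cyclases Adcy3 and Adcy9, which make it, fell (log2 fold changes -2.86 and -2.28). The list of cyclic nucleotide enzymes and protein kinase A genes had 6 of 36 higher and 11 lower at least 2-fold (4 and 16 with library totals).

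Receptors of the Wnt, Notch, semaphorin and growth factor pathways changed in both directions. Fzd1, a Wnt receptor, was at 0.482, 0.192 and 0.16 CPM in the untreated libraries and 18.6, 21.6 and 19 CPM with LPS, a rise of 6.10, and the Wnt co-receptor Lrp5 fell by 2.07. Notch1 rose by 1.87, and Mfng, a glycosyltransferase that modifies Notch, fell by 2.20. Plxna2, a semaphorin receptor (ENSMUSG00000026640, chromosome 1, 194618218 to 194816869, plus strand), was at 43, 44.4 and 45.4 CPM in the untreated libraries and 1.29, 1.73 and 2.07 CPM with LPS. It was the largest fall of the class under the rule (-4.68 on the log2 scale). Nrp1, the neuropilin that pairs with plexins, fell from 359 ± 12.4 to 43.9 ± 1.58 CPM, whereas the semaphorins Sema4a and Sema4c rose by 4.54 and 3.80. Among receptor tyrosine kinases, 8 of 20 rose and 5 fell at least 2-fold (6 and 7 with library totals): Met, the receptor of hepatocyte growth factor, rose from 9.67 ± 0.685 to 94.4 ± 3.23 CPM, and Fgfr1 fell from 7.27 ± 0.878 to 0.861 ± 0.187 CPM. Epha2, outside the rule and chosen after its values were seen, went from 128 counts over the untreated libraries to 0 with LPS, at least 29.9-fold lower against a floor of 3 counts over the group.

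Immunoglobulin-like receptors that come in activating and inhibiting pairs held more rises than falls with TMM, with 23 of 58 (39.7%) up and 10 (17.2%) down at least 2-fold, and 16 and 18 with library totals. Cd200, whose receptor restrains myeloid cells, rose from 0.441 ± 0.269 to 22.9 ± 1.34 CPM (log2 fold change 5.71), and Trem3 rose by 3.80. Cd300a, an inhibitory receptor, and Havcr2, which encodes TIM-3, fell (log2 fold changes -2.25 and -2.39). In the tetraspanin and MS4A list 10 of 25 rose and 10 fell at any size, and 8 were up and 3 down at least 2-fold (8 and 5 with library totals), with Ms4a4a up from 29.6 to 211 CPM and Tspan32 down from 16.5 to 3.5 CPM. The Ms4a, Pilrb and Trem genes lie in clusters of similar genes, whose reads can be split between copies.

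Lipoprotein receptors of the LDL receptor family leaned downward, 6 down against 3 up of 16 at least 2-fold (10 and 3 with library totals). Lrp8, a receptor of apolipoprotein E and reelin, was at 31.9, 34.3 and 35 CPM in the untreated libraries and 3.14, 3.32 and 3.81 CPM with LPS, a log2 fold change of -3.29. Of the nuclear receptors, Pparg, a sensor of fatty acids that promotes lipid uptake, was at 44.6, 43.7 and 42.7 CPM in the untreated libraries and 4.91, 4.98 and 5.24 CPM with LPS, a log2 fold change of -3.11 (SE 0.0874). Nr1h3, the oxysterol sensor LXR-alpha, rose from 45.7 ± 1.92 to 189 ± 13.6 CPM (log2 fold change 2.05). The nuclear receptor list as a whole stayed near the background, with 6 up and 5 down of 35 at least 2-fold (3 and 12 with library totals).

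Single transcription factors changed far in both directions. Batf, a partner of JUN and IRF proteins at composite sites, was at 1.74, 2.2 and 1.55 CPM in the untreated libraries and 65.8, 58.5 and 64.1 CPM with LPS, a rise of 5.09 on the log2 scale. Its relative Batf2 rose by 3.73. Batf3, outside the rule and chosen after its values were seen, fell from 0.954 to 0.17 CPM. Mxd1, which competes with MYC for their shared partner MAX, was at 12.8, 12.5 and 12.7 CPM in the untreated libraries and 232, 238 and 238 CPM with LPS, a rise of 4.22. Lhx2, a LIM homeodomain factor of developing tissues, was at 0.386, 0.431 and 0.16 CPM in the untreated libraries and 15.8, 15.1 and 16 CPM with LPS, a rise of 5.53, and Zfp811 (ENSMUSG00000055202, chromosome 17, 32795676 to 32809931, minus strand), a zinc finger gene, was at 0.0965, 0.287 and 0.374 CPM in the untreated libraries and 26.5, 27.1 and 28 CPM with LPS, the largest rise of the class under the rule (6.74). Zeb1, a factor of the epithelial-mesenchymal transition, rose by 3.74, Ahr, the aryl hydrocarbon receptor, rose by 2.49, and Prdm1, which encodes Blimp-1, rose by 1.91.

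Cebpa and Cebpb, which bind the same DNA motif, moved apart. Cebpa, a factor of myeloid differentiation, fell from 94.4 ± 9.05 to 15 ± 0.82 CPM (log2 fold change -2.64). Cebpb, a factor of the acute-phase response that is outside the rule and was chosen after its values were seen, was at 14.9, 22.4 and 24.2 CPM in the untreated libraries and 205, 228 and 183 CPM with LPS (log2 fold change 3.33, SE 0.164). The C/EBP, CREB, ATF and MAF list had 6 of 36 up and 4 down at least 2-fold (6 and 8 with library totals). No ETS factor fell at least 2-fold with TMM and 6 of 17 rose, but with library totals 3 rose and 5 fell. Spic, known from iron-recycling macrophages, rose from 1.64 ± 0.139 to 26.4 ± 1.2 CPM, and Spi1, which encodes the macrophage factor PU.1 and is outside the rule and was chosen after its values were seen, rose from 311 to 958 CPM.

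Clock genes leaned downward. The circadian clock runs on a loop in which CLOCK and BMAL1 drive their own repressors (the PER, CRY and REV-ERB proteins) and output factors such as DBP. Per3 was at 9.7, 9.72 and 10.1 CPM in the untreated libraries and 0.886, 1.18 and 0.711 CPM with LPS, a log2 fold change of -3.41, and Dbp was at 10.2, 11.5 and 12 CPM in the untreated libraries and 1.29, 0.83 and 1.42 CPM with LPS, a log2 fold change of -3.24. Nfil3, which represses the sites that DBP activates, rose from 3.61 ± 0.497 to 23.8 ± 1.23 CPM (log2 fold change 2.71), and Ciart, a repressor of CLOCK and BMAL1, rose by 2.15. Nr1d2, which encodes REV-ERB-beta, fell from 36.2 ± 1.59 to 8.83 ± 0.739 CPM, and Bhlhe41 fell from 51.2 ± 2.47 to 7.06 ± 1.06 CPM. Of 17 clock genes tested (of 19 in the files) 2 rose and 7 fell at least 2-fold (41.2%, 2 and 9 with library totals).

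Beside Per3 and Dbp, the largest falls of the class under the naming rule were in Zfp704 (ENSMUSG00000040209, chromosome 3, 9427020 to 9610085, minus strand), at 25.9, 23.7 and 24.1 CPM in the untreated libraries and 2.5, 1.94 and 1.49 CPM with LPS (log2 fold change -3.66), and in Foxm1, a factor of dividing cells, at 28.7, 30.3 and 30.0 CPM in the untreated libraries and 3.06, 2.9 and 3.43 CPM with LPS (log2 fold change -3.24). The 333 tested genes of the list named Zfp, Zfp704 and Zfp811 among them and many of them KRAB zinc finger repressors, changed at least 2-fold with TMM in few cases, 18 up (5.41%) and 42 down (12.6%), and 12 and 115 with library totals. Mef2c and Nfatc2 fell (log2 fold changes -1.64 and -1.69). Zbtb16 and Sox4, outside the rule and chosen after their values were seen, were nearly lost: Zbtb16, which encodes PLZF, went from 144 counts over the untreated libraries to 0, at least 33.7-fold lower, and Sox4 from 368 counts to 2, a ratio of 129 with an exact 95% counting interval of 35.5 to 1070.

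Enzymes that write and erase chromatin marks moved both ways. Kdm6b, which removes the repressive histone mark that Polycomb complexes write, rose from 6.49 ± 0.177 to 48.6 ± 1.76 CPM, and Kdm5b, which removes a mark of active promoters, rose from 9.4 ± 1.1 to 60.1 ± 2.28 CPM. Dnmt1, which copies DNA methylation at replication, fell from 251 ± 8.81 to 53 ± 1.6 CPM, and the arginine methyltransferase Prmt3 fell by 2.27. Chosen after their values were seen and outside the rule, Tet2, which oxidises methylcytosine, rose from 44.2 to 237 CPM, and Ezh2, which writes the mark that Kdm6b removes, fell from 32.1 to 9.7 CPM. Of 89 such enzymes 16 rose and 19 fell at least 2-fold (10 and 33 with library totals). Among chromatin readers the Phf11 cluster rose (Phf11a by 3.81 and Phf11b by 3.32, near-identical genes whose reads can be split), and the high mobility group genes Hmga2 and Hmgb3 fell (log2 fold changes -3.13 and -3.03).

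**Figure D3:**
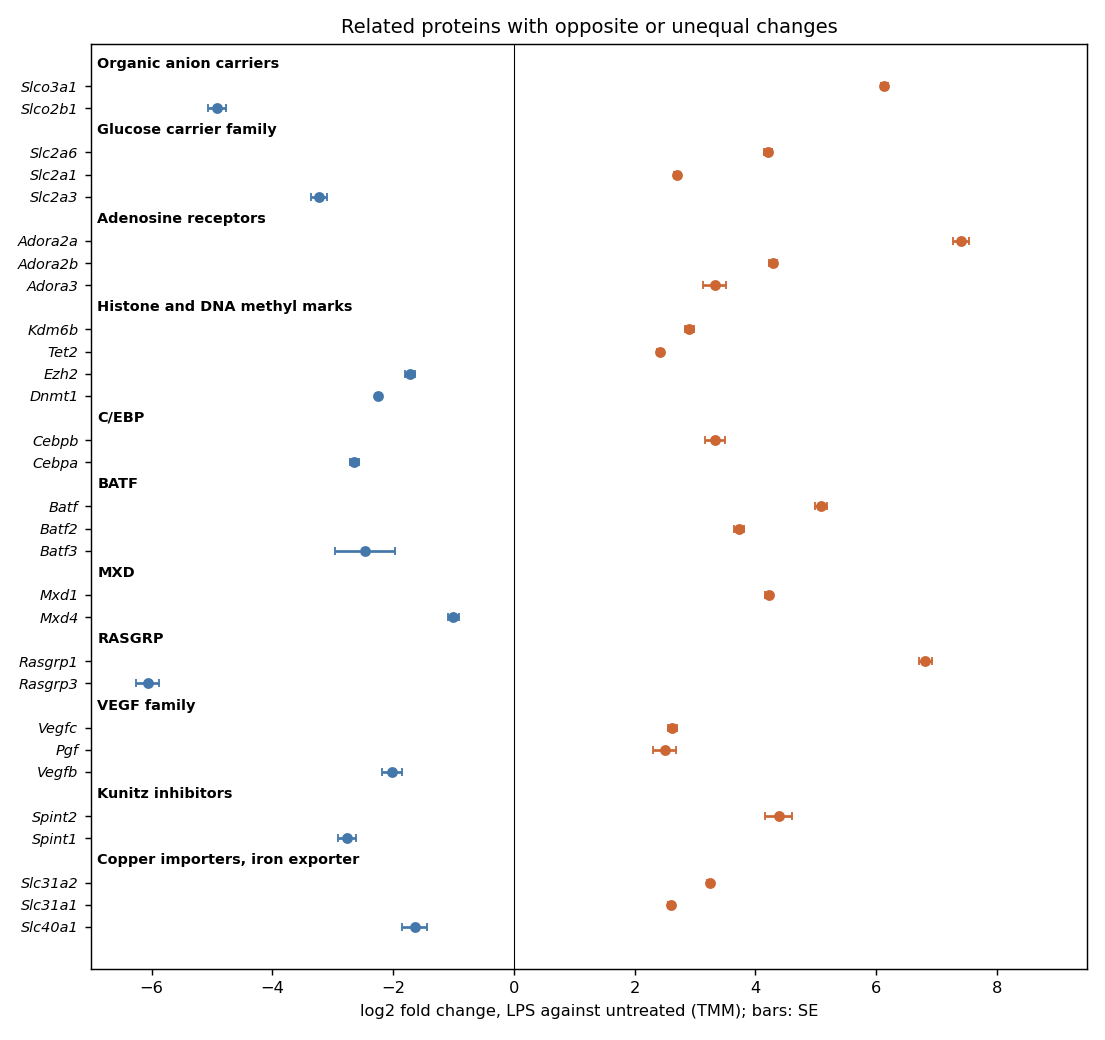
Log2 fold change with its SE (LPS against untreated, edgeR, TMM) for groups of related proteins, orange if higher and blue if lower with LPS. For genes with few counts in a group, such as Rasgrp3, the SE bars are narrower than counting error alone would give. The groups were picked for opposite or unequal changes. Slco3a1 and Slco2b1, Slc2a1 and Slc2a3, Cebpb and Cebpa, Rasgrp1 and Rasgrp3, and Spint2 and Spint1 lie on opposite sides of 0, and each gene drawn keeps its direction with library totals.

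Several enzymes that consume or rebuild NAD, or consume tryptophan, rose. Cd38, an enzyme of the cell surface that breaks down NAD (ENSMUSG00000029084, chromosome 5, 43868553 to 43912375, plus strand), was at 0.145, 0.192 and 0.00 CPM in the untreated libraries and 63.7, 65.9 and 62.9 CPM with LPS. It had 7 counts in all over the untreated libraries and 2717 with LPS, and its log2 fold change was 9.03. Bst1, its close relative, rose from 8.54 ± 1.19 to 49 ± 4.81 CPM. Nampt, which salvages nicotinamide to NAD and is outside the rule and was chosen after its values were seen, rose from 180.0 to 661 CPM, as did Kmo (from 0.482 to 3.72 CPM), an enzyme of the path from tryptophan to NAD. Nmnat3 and Nmrk1, of NAD synthesis, fell (log2 fold changes -1.38 and -1.15). In the list 8 of 17 rose (47.1%) and 3 fell at least 2-fold, and 6 and 7 with library totals. Without untreated replicate 2, 5 fell.

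A further list held PARP genes, named for poly-ADP-ribose polymerase, which also uses NAD, and other ADP-ribose enzymes. Among the enzyme families it had the largest share of members at least 2-fold higher. Of 19 tested 10 rose (52.6%) and 1 fell at least 2-fold, and 8 and 4 with library totals. Parp8 and Parp11 rose from 18.1 ± 0.849 to 118 ± 3.18 CPM and from 45.1 ± 2.17 to 232 ± 1.38 CPM. Parp12 and Parp14, outside the rule and picked after their values were seen, rose from 179.9 to 856 CPM and from 529 to 1748 CPM, and both are known as interferon-inducible. The fall was in Parp1 (from 197 ± 3.39 to 48.7 ± 0.263 CPM), the DNA repair enzyme that makes most of the cell's poly-ADP-ribose.

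More enzymes of nucleotide metabolism fell than rose, and enzymes of salvage and breakdown were among the rises. Upp1, uridine phosphorylase, which frees uracil and ribose phosphate from uridine (ENSMUSG00000020407, chromosome 11, 9118103 to 9136170, plus strand), was at 0.289, 0.144 and 0.16 CPM in the untreated libraries and 49.6, 50.6 and 47.6 CPM with LPS. Its log2 fold change was 7.90, from 12 to 2084 counts over the groups. Cmpk2, a mitochondrial kinase of pyrimidine nucleotides, rose from 94.3 ± 0.703 to 2541 ± 83.9 CPM. Samhd1, which breaks down deoxynucleotides, and Pnp2, a purine nucleoside phosphorylase, are outside the rule and were chosen after their values were seen, and rose from 497 to 2581 CPM and from 1.53 to 39.8 CPM. Ctps, which makes cytidine triphosphate, fell from 27.9 ± 0.786 to 3.02 ± 0.908 CPM (log2 fold change -3.24), and Gmpr fell by 2.83. Also chosen after their values were seen, Cad (from 53 to 15.7 CPM), of pyrimidine synthesis, and Ppat (from 19.1 to 3.68 CPM) and Pfas (from 34.6 to 6.76 CPM), of purine synthesis, fell. Over the list 10 of 83 rose and 28 (33.7%) fell at least 2-fold (9 and 42 with library totals).

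Many enzymes that feed protein synthesis fell, and so did some of one-carbon metabolism. Among aminoacyl-tRNA synthetases, which load tRNAs for translation, 29 of 39 fell and 4 rose by any amount, 9 and 1 at least 2-fold (25 and 0 with library totals). Mars2, the mitochondrial methionyl enzyme, fell from 11.3 ± 0.545 to 1.49 ± 0.21 CPM, and the only member at least 2-fold higher with TMM was Wars, the tryptophanyl enzyme (outside the rule, chosen after its values were seen, from 53.4 to 122 CPM), which is below 2-fold with library totals. Mthfd1 and Fpgs, of folate metabolism, fell (log2 fold changes -2.47 and -2.19). Gch1, which makes the cofactor tetrahydrobiopterin, rose from 26.9 ± 0.382 to 200.1 ± 2.5 CPM (log2 fold change 2.90). The folate, methionine and tetrahydrobiopterin list had 3 up and 8 down (26.7%, against 17.4% of all genes) of 30 at least 2-fold. With library totals it had 2 and 10, the falls being near the background of 31.4%. Its median log2 fold change with TMM was -0.07, against -0.02 for all genes. Polyamine and methionine salvage had 1 up and 5 down of 18 (0 and 9 with library totals), with Adi1 and Mri1 down (log2 fold changes -2.31 and -2.19).

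**Figure D4:**
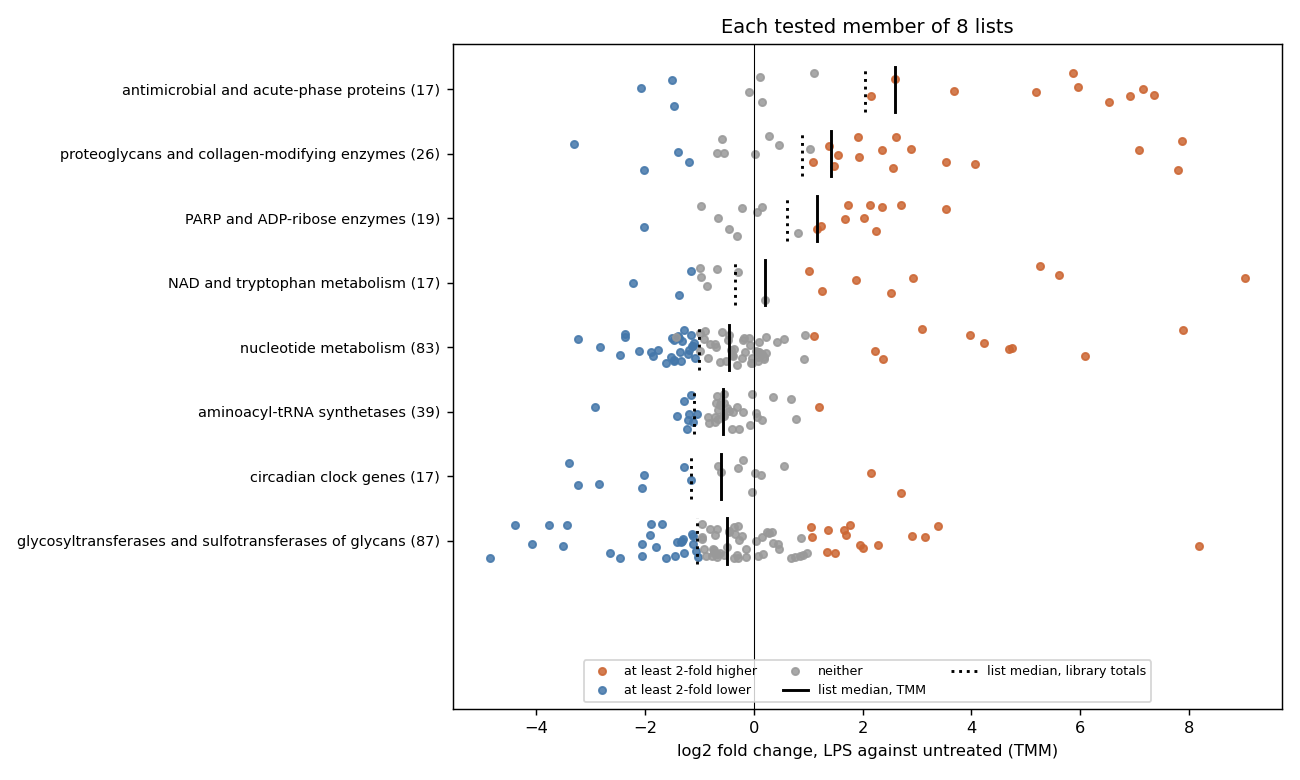
Log2 fold change (LPS against untreated, TMM) of each tested member of 8 lists, with the number tested in parentheses, coloured by whether it was at least 2-fold higher, lower or neither; vertical bars mark the list median with TMM (solid) and with library totals (dotted). Most points of the antimicrobial and proteoglycan lists lie right of 0 and most of the synthetase, clock and nucleotide lists left of it; points of genes with 0 counts in a group, such as Camp and Loxl4, are fitted values.

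Lipid and glycan enzymes moved both ways. Acsl1, which activates long-chain fatty acids, rose from 115 ± 1.56 to 1245 ± 11.1 CPM, and Dgat2, which completes triglycerides, rose from 1.11 ± 0.417 to 33.9 ± 0.767 CPM (log2 fold changes 3.44 and 4.94), while Acsl3, of the same family as Acsl1, fell by 2.86. Fatty acid oxidation and peroxisome biogenesis had few changes of at least 2-fold with TMM: 1 up and 3 down of 34, and 1 up and 0 down of 16 (0 and 13, and 0 and 1, with library totals). Pla2g4a, the phospholipase that frees arachidonic acid, rose from 41.6 ± 4.03 to 155 ± 2.39 CPM. More glycosyltransferases and sulfotransferases fell than rose, 53 against 25 of 87 at any size and 26 against 15 at least 2-fold (44 against 10 with library totals). St6gal1, which caps glycans with sialic acid, fell from 35.5 ± 0.607 to 1.24 ± 0.393 CPM (log2 fold change -4.84), while St3gal3, which adds sialic acid in another linkage, rose by 3.15, and Ext1, which elongates heparan sulfate, rose from 13.5 ± 0.309 to 141 ± 1.15 CPM. Of the cytochrome P450, aldehyde and steroid enzymes also more fell than rose, 31 against 11 of 61 at any size and 15 against 3 at least 2-fold (27 against 1 with library totals), with Cyp2s1 down from 11.9 to 0.961 CPM and Aldh1b1 up from 11.8 to 118 CPM.

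Among the signalling proteins the relatives Rasgrp1 and Rasgrp3 moved in opposite directions. Rasgrp1, an activator of RAS that responds to diacylglycerol and calcium, was at 0.772, 1.01 and 0.641 CPM in the untreated libraries and 90.4, 96 and 89.9 CPM with LPS, a rise of 6.81. Rasgrp3, of the same family (ENSMUSG00000071042, chromosome 17, 75435896 to 75529054, plus strand), was at 23.6, 23.5 and 25.4 CPM in the untreated libraries and 0.483, 0.415 and 0.194 CPM with LPS, a log2 fold change of -6.07. Neither gene's groups overlapped, which the naming rule required. RAS and RAP regulators had 17 up and 11 down of 57 at least 2-fold (11 and 17 with library totals). Arhgap19, of a family of GTPase activators, was at 104, 107 and 105 CPM untreated and 4.59, 2.9 and 2.97 CPM with LPS. Rnd1, a small GTP-binding protein that opposes contractility, rose from 1.77 ± 0.426 to 30.5 ± 1.52 CPM. Tbc1d2, a GTPase activator of RAB proteins, was at 22.8, 23.9 and 25.7 CPM in the untreated libraries and 0.645, 0.346 and 1.36 CPM with LPS, and the RAB proteins Rab32 and Rab20, which act on phagosomes, rose by 2.82 and 2.49.

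Among kinases, Map3k8, which activates the ERK branch downstream of Toll-like receptors, rose from 18.4 ± 0.717 to 96.1 ± 2.68 CPM, Mapkapk2, the p38 effector that stabilises inflammatory transcripts, rose from 202 ± 4.74 to 1180 ± 5.08 CPM, and Pim1 rose from 24.1 ± 2.4 to 270.0 ± 15 CPM. Map3k9 fell by 4.23 and Spry2, an inhibitor of the ERK branch, fell by 2.20. The MAP kinase list held 8 rises and 3 falls of 49 at 2-fold (5 and 9 with library totals), and the list of other serine/threonine kinases 20 and 16 of 98 (13 and 26). In lipid signalling Plpp1, a phosphatase of lysophosphatidic acid and related lipids, rose from 1.35 ± 0.307 to 35.7 ± 2.01 CPM, and Inpp4b, a phosphoinositide phosphatase, fell by 2.29.

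More ubiquitin ligases rose than fell with TMM. RING-finger and HECT ligases had 24 up and 11 down of 111 at least 2-fold (16 and 18 with library totals) and TRIM proteins 15 and 8 of 42 (7 and 14). Dtx2, of the Deltex family, rose from 9.94 ± 0.181 to 167 ± 2.89 CPM, and March1, which removes MHC class II from the surface, rose from 34.6 ± 1.13 to 379.8 ± 10.4 CPM. Rnf144b was at 14.7, 14.1 and 12.3 CPM in the untreated libraries and 0.403, 0.277 and 0.453 CPM with LPS, a log2 fold change of -5.16. The Trim30 genes rose (Trim30c by 4.22, Trim30b by 4.17), but they are near copies of each other whose reads can be split. Usp18, which removes the ubiquitin-like ISG15 and damps interferon signalling, rose from 91.3 ± 5.34 to 1031 ± 28.1 CPM, while Usp2 fell by 3.57. Autophagy genes mostly stayed within 2-fold (5 up and 4 down of 51, 3 and 8 with library totals), Bnip3, a mitophagy receptor, being the largest rise under the rule at 2.90.

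Of the peptidases outside the matrix metalloproteinases and cathepsins more rose than fell with TMM, 29 against 16 of 53 at any size and 19 against 5 at least 2-fold, but 11 against 11 with library totals. Adamts4, an aggrecanase that also cleaves versican, was at 0.0482, 0.192 and 0.16 CPM in the untreated libraries and 30.9, 28.8 and 31.2 CPM with LPS, a rise of 7.77 from 8 to 1283 counts over the groups. Adam19 rose from 13 ± 1.19 to 66 ± 1.6 CPM, and Adamts10 fell by 1.50.

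Proteoglycans and enzymes that modify collagen mostly rose. Vcan, the proteoglycan versican, was at 1.3, 1.29 and 1.23 CPM in the untreated libraries and 287, 299 and 278 CPM with LPS, a rise of 7.81 on the log2 scale. Lox, lysyl oxidase, which cross-links collagen and elastin, was at 0.579, 0.575 and 0.374 CPM in the untreated libraries and 116, 125 and 125 CPM with LPS, a rise of 7.87. The 3 LPS libraries were close to each other for both genes and far above the untreated ones. Of 26 proteoglycans and collagen-modifying enzymes 15 rose (57.7%) and 4 fell at least 2-fold, and 11 and 7 with library totals. The median of the list was 1.43. Sdc4, a heparan sulfate proteoglycan of the cell surface, and Srgn, serglycin, the proteoglycan of storage granules, are outside the rule and were chosen after their values were seen, and rose from 123 to 1433 CPM and from 70.8 to 433 CPM. Cspg4, a membrane-bound chondroitin sulfate proteoglycan, was at 286, 299.6 and 322 CPM in the untreated libraries and 33.9, 27 and 30.8 CPM with LPS, a log2 fold change of -3.31, and Hyal1, which degrades hyaluronan, fell by 2.02.

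Collagens, laminins and other matrix proteins rose in 22 and fell in 9 of 35 tested at any size, with 14 up and 7 down at least 2-fold (11 and 9 with library totals). Only 35 of the 105 genes in the files had enough counts. Thbs1, thrombospondin-1, rose from 3.93 ± 0.188 to 202 ± 12.5 CPM, and Tnc, tenascin-C, a matrix protein of injured tissue, rose from 6.44 ± 0.668 to 311 ± 7.48 CPM (log2 fold changes 5.68 and 5.60). Vwf, von Willebrand factor, fell by 2.27. Beside these rises, 3 endothelial markers were also at least 2-fold higher. They were Pecam1 (from 0.244 to 2.83 CPM), Cdh5 (from 1.63 to 5.43 CPM) and Kdr (from 18.2 ± 1.81 to 58.8 ± 2.99 CPM). Tek, another endothelial marker, had 1 count over the untreated libraries and 0 with LPS. Col1a1 and Col3a1 were at 0, and the part of stromal or endothelial cells in the matrix result was not tested.

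Antimicrobial and acute-phase proteins had the largest share of members at least 2-fold higher of the 70 families, 10 of 17 tested (58.8%), with 3 at least 2-fold lower, and the same counts with library totals. Lcn2, lipocalin-2, which withholds iron from bacteria by binding their siderophores, rose from 2.12 ± 0.668 to 308 ± 5.24 CPM (log2 fold change 7.17), and Saa3, serum amyloid A3, rose from 58 ± 3.5 to 7043 ± 496 CPM (6.92). Outside the rule, chosen after their values were seen, Cp, ceruloplasmin, which carries copper and oxidises iron, rose from 5.33 to 315 CPM, and Hp, haptoglobin, from 0.512 to 32.6 CPM. Camp, the cathelicidin precursor and one of the granulocyte markers, went from 0 counts over the untreated libraries to 46 with LPS, at least 21.9-fold higher against a floor of 3 counts over the group. Of the other granulocyte markers S100a8, a subunit of calprotectin that is outside the rule and was chosen with this list, rose from 39 to 215 counts over the groups (from 0.644 ± 0.0496 to 5.11 ± 0.844 CPM, log2 fold change 2.96), while S100a9, which encodes its partner subunit, had 54 and 24 counts (log2 fold change -0.65, edgeR adjusted p = 0.123). Cxcr2 had 6 counts untreated and 2 with LPS, Elane 0 in all 6 libraries, Mpo, Ly6g and Retnlg 1 each untreated and 0 with LPS, and Ltf and Ngp 29 and 23 untreated and 2 each with LPS. The part of granulocytes in the Camp result was not tested. The falls were Rnase6 (-2.08) and Ang (-1.50), ribonucleases with antimicrobial activity, and Rnase4 (-1.46, outside the rule and chosen after its values were seen), which shares its locus with Ang, so that reads may be assigned to either.

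Protease inhibitors rose in 18 and fell in 6 of 27 at any size, with 12 up and 5 down at least 2-fold (11 and 6 with library totals). Serpinb2, an inhibitor of plasminogen activators (ENSMUSG00000062345, chromosome 1, 107511423 to 107535478, plus strand), was at 0.0482, 0.0958 and 0.16 CPM in the untreated libraries and 41.4, 47.9 and 38.3 CPM with LPS, a rise of 8.65. Spint1, an inhibitor of hepatocyte growth factor activator, was at 13.5, 14.3 and 16.8 CPM in the untreated libraries and 1.85, 2.28 and 2.33 CPM with LPS, a log2 fold change of -2.76, while the related Spint2, outside the rule and chosen after its values were seen, rose from 0.349 to 7.45 CPM.

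More growth factors and hormones fell than rose, 21 against 14 of 39 at any size and 16 (41%) against 10 at least 2-fold (21 against 9 with library totals). Edn1, the vasoconstrictor peptide endothelin-1 (ENSMUSG00000021367, chromosome 13, 42301476 to 42307990, plus strand), nevertheless had the largest rise of the 253 named genes and was at 0.0482, 0.144 and 0.0534 CPM in the untreated libraries and 93.6, 86.8 and 89.4 CPM with LPS. Its log2 fold change of 9.97 rests on 5 counts over the untreated libraries against 3800 with LPS. Igfbp7 rose from 0.692 ± 0.232 to 15.9 ± 1.53 CPM. Vegfc, outside the rule and chosen after its values were seen together with the next 2 genes, rose from 11.7 to 72.3 CPM, while Vegfb fell from 9.21 to 2.31 CPM and Pdgfa fell from 46.2 to 8.16 CPM. Kitl, stem cell factor (ENSMUSG00000019966, chromosome 10, 100015630 to 100100416, plus strand), was at 41.9, 41.1 and 34.3 CPM in the untreated libraries and 0.886, 1.11 and 1.1 CPM with LPS, a log2 fold change of -5.23. Angptl2, an angiopoietin-like protein, was at 329, 344 and 357 CPM in the untreated libraries and 16.4, 11.8 and 15.6 CPM with LPS, a log2 fold change of -4.56 in a gene that was well expressed before LPS.

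Among the smaller secreted families, apolipoprotein and lipid-binding genes rose in 8 and fell in 6 of 16 at any size, with 6 up and 2 down at least 2-fold (4 and 3 with library totals, and 1 down without LPS replicate 2). Apol9a and Apol9b, near-identical copies, rose by 3.85 and 3.38, and the fatty acid-binding proteins Fabp4 and Fabp5 fell (log2 fold changes -1.15 and -1.07). Like most tested genes, S100 proteins, annexins and galectins mostly stayed within 2-fold (5 up and 1 down of 23, 2 and 3 with library totals). Lgals9, galectin-9, rose by 1.68.

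The promoters of changed genes were searched for 7 short motifs. RefSeq windows of 300 bases (250 before to 50 after a start, GRCm38.p6) were found for 9117 of the 11560 tested genes by symbol, 1417 of them at least 2-fold higher and 1521 at least 2-fold lower. A gene counted if any of its windows held the motif on either strand. The core of the interferon response element (GAAA, any 2 bases, GAAA) was in the windows of 9.32% of the higher genes, 3.02% of the lower and 4.11% of all. A kappa-B type motif (GGGA, any 2 bases, TTCC) was in 3.18%, 2.04% and 1.84%, and the AP-1 motif TGANTCA in 10.2%, 6.84% and 6.49%. The cyclic AMP response element TGACGTCA was in 3.46%, 3.35% and 3.69%. The E-box CACGTG was in 9.88% of the higher, 14.2% of the lower and 11.9% of all genes, and CCAAT in 39.9%, 46.5% and 43.1%, so that both were below the share of all genes in the higher and above it in the lower ones. TTTGAA, the CHR element of cell cycle genes, was in 15.9%, 17.9% and 14.5%, above the share of all genes in both. These shares are a description without a test, and a match is not a bound site.

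Of the 40 genes named by class, 30 had a window and 7 of these held 1 of the first 4 motifs. The stretches below show 5 of them, which carry the interferon element or AP-1. Shares of these 2 motifs in the higher genes were furthest above those in all genes in percentage points (as a ratio, the kappa-B type motif was further above than AP-1). Kitl, which fell, held a kappa-B type match 152 bases before its RefSeq start. That start differs from the start of the gene span given above for Kitl, and the match lies inside that span. Slco2b1, which also fell, held an AP-1 match 13 bases after its start but is not printed. Each printed stretch runs 5′ to 3′ on the gene's strand, with the match in capitals and 25 bases on either side. Distances are to the nearest RefSeq start whose window held the match. The same Upp1 match was also 140 bases before another RefSeq start, and the same Serpinb2 match 181 bases before another.
Gpr18 (higher with LPS, interferon element, chr14:121915895-121915954, minus strand, 41 bases before the start): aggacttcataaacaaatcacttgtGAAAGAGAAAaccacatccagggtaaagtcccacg
Edn1 (higher, interferon element read on the opposite strand, chr13:42301373-42301432, plus strand, 78 bases before the start): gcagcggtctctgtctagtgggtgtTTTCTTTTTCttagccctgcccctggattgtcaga
Upp1 (higher, AP-1, chr11:9117938-9117994, plus strand, 45 bases before the start): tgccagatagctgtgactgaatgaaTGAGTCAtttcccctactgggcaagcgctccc
Serpinb2 (higher, AP-1, chr1:107511304-107511360, plus strand, 94 bases before the start): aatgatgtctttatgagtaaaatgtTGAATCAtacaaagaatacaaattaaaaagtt
Spint1 (lower, AP-1, chr2:119237329-119237385, plus strand, 6 bases before the start): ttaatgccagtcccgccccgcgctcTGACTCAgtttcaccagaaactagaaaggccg
The AP-1 match stood in 2 genes that rose steeply and 2 that fell steeply. Upp1 rose by 7.90 and Serpinb2 by 8.65, while Slco2b1 fell by 4.92 and Spint1 fell by 2.76.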

How the data were processed

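Per the labels, RNA of 9 BMDM libraries was sequenced after TruSeq stranded preparation. Tools credited to the submitters' processing notes are STAR 2.5.4b, featureCounts, Trimmomatic, bcl2fastq 2.19 and edgeR, on build GRCm38. The annotation release and strand setting are not given in the sources used. The deposited values are whole-number read counts per Ensembl gene (22524 genes), not normalized. Symbols were found for 22214 genes, and positions came from GENCODE mouse release 21 on GRCm38. Overlapping or antisense genes and near-identical copies cannot be told apart with certainty.

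The analysis used edgeR 4.0.16 on limma 3.58.1 in R 4.3.3. Genes kept by filterByExpr over the 3 groups (11560) entered 1 quasi-likelihood fit of all 9 libraries (TMM scaling, robust estimation, group as the only term), with Benjamini-Hochberg adjustment and a threshold of 0.05. The common biological coefficient of variation was 3.46%. Replicate pairs of the 2 groups differed by more than sampling noise (chi-square per degree of freedom 1.75 to 3.93, genes with at least 20 counts per pair). Total counts of 15321839 to 19009123 per library set the precision, and intervals and floors cover counting error only. On simulated counts with most genes unchanged (11288 genes), the steps recovered 100% of genes changed 2-fold and 78% of those changed 1.25-fold, with 5 unchanged genes called. In the real data 81.7% of genes were called, so the simulation does not measure the error that scaling brings here.

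Families were defined by gene symbol and, with the comparison itself, were chosen with earlier results of these data known. Symbols that matched a family by spelling alone were removed after the files were read, without reference to their values. Named genes are, per family, the 2 largest rises and 2 largest falls among members changed at least 2-fold with TMM and with library totals, with groups that do not overlap, a mean log2 CPM of at least 1 (prior count 2) and an ordinary symbol. The 4 largest of each class are given in every library. Some genes that the rule named, and 1 family, are not reported here. Alternatives were library totals, median-ratio scaling, DESeq2 1.42.0, no low-count filter, the 6 control libraries alone, a replicate block and leaving out each library.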

Additional observations from a re-analysis of the deposited data

How the results depend on the processing

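With library totals in place of TMM, 2428 genes were higher and 7835 lower, 1172 and 3631 at least 2-fold, against 4722, 4721, 1805 and 2006 with TMM. This setting also moved 80 of the 140 counts of list members by more than 1.5 times, and no other whole-library setting moved any. With DESeq2, 4649 genes were higher and 4475 lower, and without the low-count filter 4805 and 4966. Leaving out each of the 6 libraries in turn gave 4579 to 4665 genes higher and 4577 to 4680 lower, 1816 to 1834 and 2012 to 2055 at least 2-fold. List counts moved in 2 cases, the falls in NAD and tryptophan metabolism (5 in place of 3 without untreated replicate 2) and in apolipoproteins and lipid-binding proteins (1 in place of 2 without LPS replicate 2). All 253 named genes kept their direction and passed in each of these settings and in median-ratio scaling, the 6 control libraries alone and the replicate block. For library totals the naming rule itself required this. The rule also required groups that do not overlap, which left little room for another outcome when a library was left out. The replicate block gave 4741 genes higher and 4726 lower, 1804 and 2001 at least 2-fold. Same-numbered libraries of the 2 groups did not deviate together (correlations -0.034, 0.0018 and 0.030), so the numbers were not taken as pairs. List medians were the same with genes at 0 counts in a group placed at their bound. Depth limits statements on genes with few counts in a group, such as Edn1 (5 untreated), Serpinb2 (6), Cd38 (7) and Adamts4 (8).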

Other observations

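Of the tested genes on none of the 70 lists, 1213 of 8388 rose (14.5%) and 1417 fell (16.9%) at least 2-fold, 777 and 2579 with library totals. The genes below were chosen from them after their values were seen. Lipg, endothelial lipase, which splits phospholipids of lipoproteins, rose from 0.812 ± 0.00996 to 344 ± 15.7 CPM (log2 fold change 8.72). Ptges, which turns its precursor into prostaglandin E2, rose from 7.72 ± 0.32 to 1283 ± 13.2 CPM, and Mmp13, a collagenase, rose from 14.4 ± 1.08 to 2600 ± 81.5 CPM.

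Of the falls, also chosen after their values were seen, Bcl2, an inhibitor of apoptosis, fell from 15.8 ± 2.09 to 0.827 ± 0.064 CPM (log2 fold change -4.25), and Cxcr4, the receptor of the retention chemokine CXCL12, fell from 95.9 ± 3.14 to 6.17 ± 0.616 CPM (-3.95). Tns1, tensin-1, which links integrins to actin, fell from 53.1 ± 2.81 to 1.97 ± 0.504 CPM, and Eps8, which caps and bundles actin, fell from 17 ± 0.554 to 0.962 ± 0.191 CPM. Steap3, a reductase that lets iron leave endosomes, fell from 78.6 ± 3.87 to 5.5 ± 0.974 CPM (log2 fold change -3.82). Each of these 8 genes kept at least a 2-fold change in the same direction with library totals, and its groups did not overlap.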
